A study of Mus musculus with 6 samples.

Results

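The genes examined are the nuclear-encoded subunits of respiratory complexes II to V, with cytochrome c, in mouse C2C12 myotubes. They were taken by symbol: Sdha, Sdhb, Sdhc, Sdhd, Cyc1, Cycs and every gene whose symbol begins with Uqcr, Cox4, Cox5, Cox6, Cox7, Cox8 or Atp5, provided that a probe set was tied to that symbol alone. This gave 48 of the 19938 named genes on the array: 4 in complex II, 9 in complex III, 1 for cytochrome c, 17 in complex IV and 17 in complex V. For the 13 genes with more than 1 probe set, the one with the highest mean was used. Of the 48 genes, 1 (Cox7b2) lay among the 33.3% of named probe sets with the lowest mean signal. Cox7c, a complex IV gene, had no probe set tied to it alone and is not analysed here. Cox7a2l was taken by its spelling but encodes a factor that joins complexes III and IV into supercomplexes.

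C2C12 is a mouse myoblast line that fuses into myotubes when serum is lowered, and the study asked how loss of perilipin 2 (Plin2), a lipid droplet coat protein, alters these cells. The cultures were transfected with 10 nM of siRNA, directed against Plin2 or scrambled, and then received palmitate or oleate at 200 µM for 20 h, bound to bovine serum albumin (BSA) in a 2.5 to 1 ratio, or the albumin without fatty acid. The 6 conditions were Plin2 siRNA with palmitate, oleate or BSA, and scrambled siRNA with the same 3 treatments. Each condition had 1 array and no replicate. All groups were differentiated in 2% serum on a matrix coating and all carried an siRNA and its lipid carrier. The number of distinct Plin2 siRNA sequences is not given in the labels, so loss of Plin2 and other effects of that reagent cannot be told apart.

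Values are log2 expression after RMA, and a change is a log2 difference, so that 1 unit is a doubling. The 3 treatments served as the 3 pairs of arrays for the siRNA change and the 2 siRNAs as the 2 pairs for a fatty acid change. P-values come from limma and are adjusted over all named probe sets, and a gene is said to rise or fall only with an adjusted p under 0.05. With 1 array per condition, the p-values rest on how evenly a change ran across the pairs among these 6 arrays, not on replicates. They also draw on the spread of other probe sets. Unevenness between pairs may be technical or a true difference between treatments or siRNAs, and the labels do not tell if cultures were independent. Array levels of different genes are not compared with each other, because each probe set has its own response.

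Plin2 was lower on every array of its siRNA: 7.45, 7.63 and 6.95 with palmitate, oleate and BSA in Plin2 siRNA cells, against 10.10, 10.03 and 9.29 in scrambled cells. Over all probe sets the arrays correlated at 0.987 to 0.994. Of 12 myotube markers taken for the check, 8 fell with Plin2 siRNA and 0 rose, where 8.8% of all named genes fell and 8.31% rose. Their mean log2 level was 11.24 to 11.34 over the Plin2 siRNA arrays and 11.42 to 11.75 over the scrambled arrays. Of 6 markers of undifferentiated myoblasts, 4 rose and 0 fell, with mean levels of 8.75 to 8.95 in Plin2 siRNA cells and 8.23 to 8.45 in scrambled cells. Those that rose were the related genes Id1 (0.42), Id2 (0.465) and Id3 (1.60), and Myf5 (0.63). Pax7 stood at 0.20 (adjusted p = 0.13) and Vcam1 at -0.25 (adjusted p = 0.057). Of 6 fibroblast markers 1 rose (Pdgfra), and of 3 proliferation, 4 adipocyte and 3 osteoblast markers measured 0 passed. Calls of myotube markers were in the opposite direction to those of the respiratory genes described below, and calls of myoblast markers in the same direction. The part of either in those results was not tested, and in a culture measured in bulk fewer cells of a type and less RNA per cell cannot be told apart.

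The respiratory chain passes electrons from reduced cofactors to oxygen and stores the energy as a proton gradient across the inner mitochondrial membrane. Complex II takes electrons from succinate, complex III hands them from ubiquinol to cytochrome c, complex IV passes them to oxygen, and complex V, the ATP synthase, uses the gradient to make ATP. In muscle this chain supplies most of the ATP of sustained contraction, and several complex IV subunits exist in a general form and a form found in heart and skeletal muscle.

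With Plin2 siRNA, 24 of the 48 genes rose and 0 fell. Among all named genes, 8.31% rose and 8.8% fell. The median change of the 48 genes was 0.20, against 0.00 over all named genes. In 29 of the 48, all 3 Plin2 siRNA arrays lay above all 3 scrambled arrays, and in 0 all 3 lay below. The first pattern was found in 15.3% of named genes. Rises were found in 2 of 4 genes of complex II, 5 of 9 of complex III, 9 of 17 of complex IV and 8 of 17 of complex V, while Cycs did not pass. Median changes were 0.14 in complex II, 0.30 in complex III, 0.24 in complex IV and 0.18 in complex V. No test was made between complexes.

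**Figure D1:**
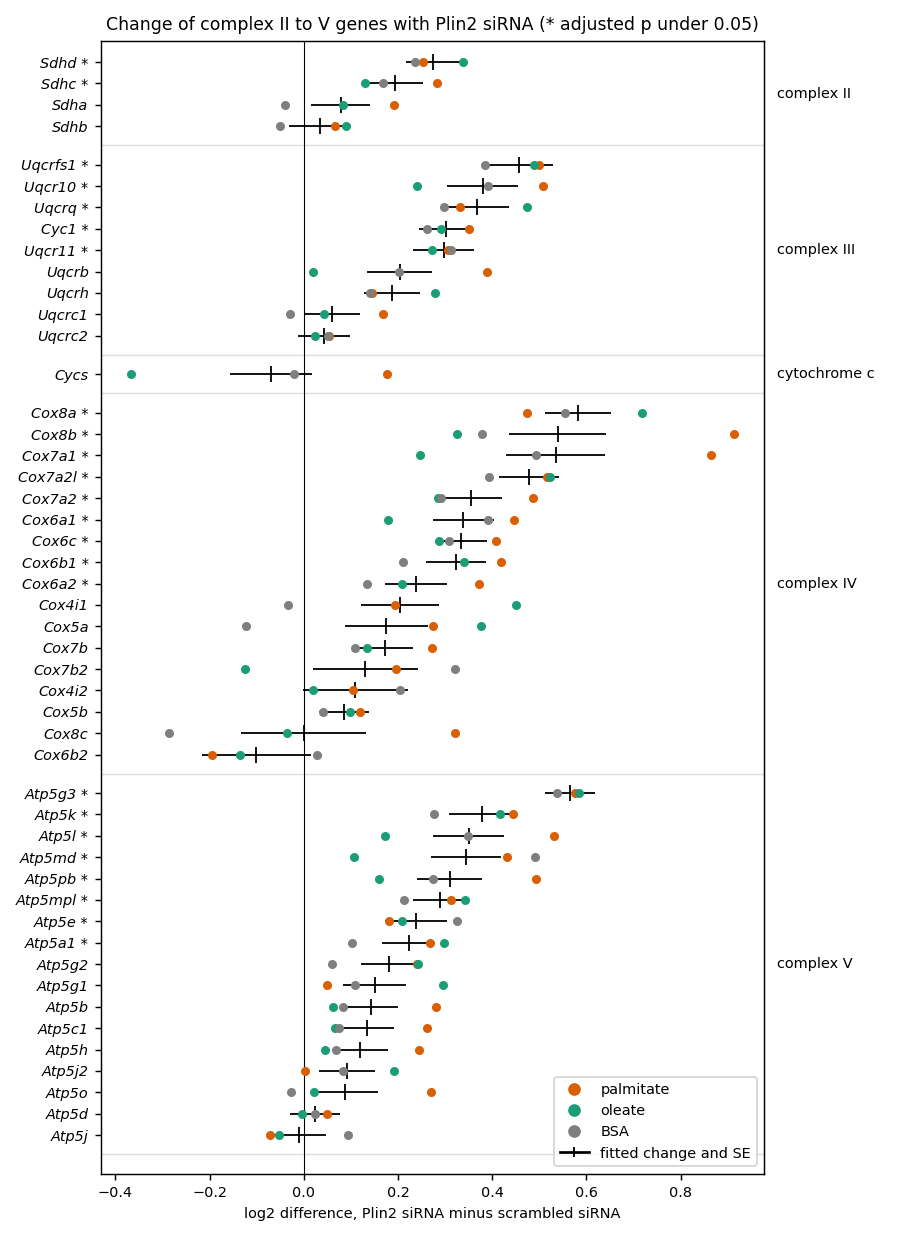
Log2 difference, Plin2 siRNA minus scrambled siRNA, for each of the 48 genes, grouped by complex. Coloured points are the 3 pairs of arrays (palmitate, oleate, BSA), the black tick and bar are the fitted change and its SE, and an asterisk marks the 24 genes with an adjusted p under 0.05, all of them to the right of 0.

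In each of complexes II to V the median was highest in the palmitate pair. For complex II it was 0.22 with palmitate, 0.11 with oleate and 0.06 with BSA, and for complex III it was 0.33, 0.27 and 0.26. Complex IV had medians of 0.37, 0.25 and 0.21, and complex V of 0.27, 0.17 and 0.10. Over all named genes these medians were -0.04, 0.03 and 0.02. The scrambled palmitate array gave the lowest of the 6 values in 37 of the 48 genes, against 19.3% of all named genes. Without that array 22 genes rose, all of them among the 24, and Sdhc and Cox6a2 lost their calls. With a treatment term in the fit, leaving out 1 array also takes its partner out of the siRNA change. Without the Plin2 siRNA palmitate array 22 genes rose as well, so these fits cannot single out the scrambled palmitate array. Without a BSA array, 20 rose, of which 18 were among the 24. The 6 that lost their calls were Sdhc, Sdhd, Uqcr11, Cox6a2, Atp5e and Atp5md.

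**Figure D2:**
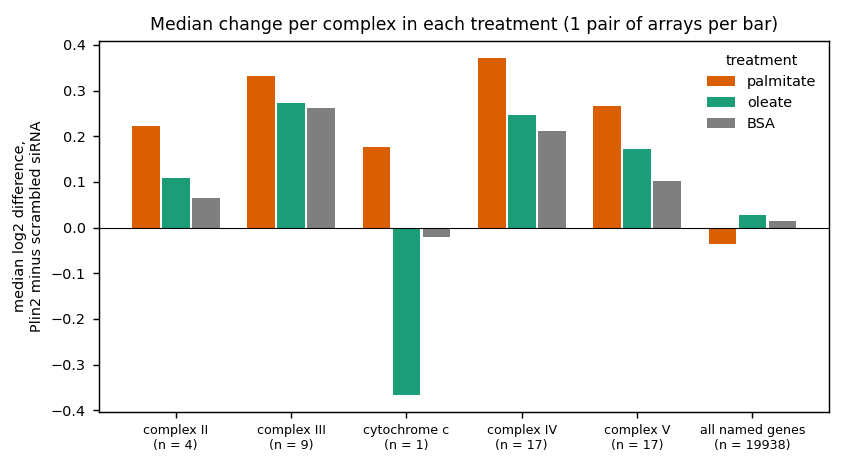
Median log2 difference, Plin2 siRNA minus scrambled siRNA, over the genes of each complex (vertical axis) in each treatment; every bar is the median over genes of 1 pair of arrays. In complexes II to V the bars for palmitate, oleate and BSA are all above 0 and highest for palmitate, while cytochrome c, a single gene, ran from -0.37 with oleate to 0.18 with palmitate.

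In complex II the membrane anchors rose and the catalytic subunits did not pass. The grouping by role, here and in the complexes below, was written after values were seen. Roles were not tested against each other, so a call in one and none in another does not show a difference. Sdhc and Sdhd hold the enzyme in the membrane and bind ubiquinone. Sdhd read 10.45, 10.71 and 10.62 in Plin2 siRNA cells, against 10.20, 10.37 and 10.38 in scrambled cells, in the order palmitate, oleate and BSA that is kept from here on. It rose by 0.28 (SE 0.06, adjusted p = 0.0075), with no overlap between the siRNAs. Sdhc read 10.90, 10.82 and 10.94 in Plin2 siRNA cells, against 10.62, 10.69 and 10.77 in scrambled cells, a change of 0.19 (SE 0.06, adjusted p = 0.045). The lowest Plin2 siRNA value of Sdhc was above the highest scrambled value. Sdhc passed in 5 of 13 alternative settings and Sdhd in 10. These settings are not all separate, since leaving out either array of a pair gives the same change. Sdhc lost its call without either palmitate array, at 0.15 (adjusted p = 0.15 and 0.16), and without either BSA array, at 0.21 (adjusted p = 0.21 for both). Sdhd lost its call without either BSA array, at 0.29 (adjusted p = 0.053 and 0.054). Sdha, the flavoprotein that oxidises succinate, read 10.67, 10.77 and 10.66 in Plin2 siRNA cells, against 10.48, 10.68 and 10.71 in scrambled cells. Its change was 0.08 (95% confidence interval -0.06 to 0.22, adjusted p = 0.52). Sdhb, the iron-sulphur subunit, read 9.45, 9.54 and 9.54 in Plin2 siRNA cells, against 9.38, 9.45 and 9.59 in scrambled cells, and stood at 0.04 (95% confidence interval -0.11 to 0.18, adjusted p = 0.82). For both catalytic genes the values of the 2 siRNAs overlapped and the BSA pair lay below 0.

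In complex III both redox subunits measured here rose, as did 3 of the 5 small subunits, while the core proteins did not pass. These roles too were grouped after values were seen and not tested against each other. Uqcrfs1, the Rieske iron-sulphur protein, read 8.69, 8.82 and 8.69 in Plin2 siRNA cells, against 8.19, 8.33 and 8.31 in scrambled cells. Its change was 0.46 (SE 0.07, adjusted p = 0.0011). Cyc1, the cytochrome c1 that passes electrons to cytochrome c, read 11.07, 11.16 and 11.15 in Plin2 siRNA cells, against 10.72, 10.87 and 10.89 in scrambled cells, a change of 0.30 (SE 0.06, adjusted p = 0.0034). Both genes were higher in all 3 pairs, and their values did not overlap between the siRNAs.

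Uqcr10, Uqcr11 and Uqcrq are small subunits that surround the catalytic core. Uqcr10 read 8.87, 8.76 and 8.90 in Plin2 siRNA cells, against 8.37, 8.52 and 8.51 in scrambled cells, a change of 0.38 (SE 0.08, adjusted p = 0.0050). Uqcrq read 9.51, 9.75 and 9.67 in Plin2 siRNA cells, against 9.17, 9.28 and 9.37 in scrambled cells, a change of 0.37 (SE 0.07, adjusted p = 0.0029). Uqcr11 read 9.26, 9.25 and 9.39 in Plin2 siRNA cells, against 8.95, 8.98 and 9.08 in scrambled cells, a change of 0.30 (SE 0.07, adjusted p = 0.0085). In each of these 3 genes every Plin2 siRNA array exceeded every scrambled array. Uqcrh, the hinge protein, stood at 0.19 (95% confidence interval 0.06 to 0.32, adjusted p = 0.054), also without overlap between the groups. Uqcrb, a ubiquinone-binding subunit, stood at 0.20 (95% confidence interval 0.05 to 0.36, adjusted p = 0.073), and its other 2 probe sets at 0.23 (adjusted p = 0.036) and 0.24 (adjusted p = 0.046), past the threshold. The core proteins Uqcrc1 and Uqcrc2 form the large matrix part of the complex. Uqcrc1 read 11.31, 11.40 and 11.40 in Plin2 siRNA cells, against 11.14, 11.36 and 11.43 in scrambled cells, and its change was 0.06 (95% confidence interval -0.07 to 0.19, adjusted p = 0.61). Uqcrc2 read 11.14, 11.12 and 11.19 in Plin2 siRNA cells, against 11.09, 11.10 and 11.14 in scrambled cells, and its change of 0.04 (95% confidence interval -0.08 to 0.16, adjusted p = 0.72) was the lowest in the complex. Both core proteins had overlapping groups.

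Cycs, the mobile carrier between complexes III and IV, read 10.73, 10.74 and 10.75 in Plin2 siRNA cells, against 10.56, 11.11 and 10.77 in scrambled cells. Its change was -0.07 (95% confidence interval -0.26 to 0.12, adjusted p = 0.71). The scrambled oleate array was the highest of the 6, and the pair differences ran from -0.37 with oleate to 0.18 with palmitate. The other 2 probe sets of Cycs stood at 0.03 and 0.32 (adjusted p = 0.89 and 0.21).

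Complex IV held the largest rise of the 48 genes. Of its 9 general subunits, found in most tissues, 5 rose. Cox8a read 9.81, 10.05 and 9.80 in Plin2 siRNA cells, against 9.34, 9.33 and 9.25 in scrambled cells. It rose by 0.58 (SE 0.07, adjusted p = 1.6e-04). Cox7a2 read 9.92, 9.89 and 9.87 in Plin2 siRNA cells, against 9.43, 9.60 and 9.58 in scrambled cells, a change of 0.35 (SE 0.07, adjusted p = 0.0038). Cox6a1 read 11.07, 11.01 and 11.13 in Plin2 siRNA cells, against 10.62, 10.83 and 10.74 in scrambled cells, a change of 0.34 (SE 0.07, adjusted p = 0.0041). The siRNA groups were separate in all 3 of these genes.

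Cox6c read 12.16, 12.24 and 12.15 in Plin2 siRNA cells, against 11.75, 11.95 and 11.84 in scrambled cells, a change of 0.33 (SE 0.05, adjusted p = 0.0013). Cox6b1, which faces the intermembrane space where cytochrome c docks, read 10.46, 10.56 and 10.54 in Plin2 siRNA cells, against 10.04, 10.22 and 10.33 in scrambled cells, a change of 0.32 (SE 0.06, adjusted p = 0.0045). These 2 genes were also separate between siRNAs. The other 4 general subunits did not pass. Cox4i1 read 10.52, 10.91 and 10.51 in Plin2 siRNA cells, against 10.33, 10.46 and 10.54 in scrambled cells, and stood at 0.20 (95% confidence interval 0.02 to 0.38, adjusted p = 0.13). Cox7b read 10.98, 11.01 and 10.99 in Plin2 siRNA cells, against 10.71, 10.88 and 10.88 in scrambled cells, and stood at 0.17 (95% confidence interval 0.04 to 0.30, adjusted p = 0.076), without overlap. Cox5a stood at 0.17 (95% confidence interval -0.02 to 0.37, adjusted p = 0.24) and Cox5b at 0.09 (95% confidence interval -0.03 to 0.20, adjusted p = 0.36). Cox4i1 and Cox5a, which assemble with the catalytic core early, were the general subunits whose BSA pair lay below 0, at -0.03 and -0.12, and their oleate pairs stood at 0.45 and 0.38.

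All 3 heart and skeletal muscle isoforms rose. Cox7a1 read 8.33, 8.55 and 8.64 in Plin2 siRNA cells, against 7.47, 8.30 and 8.15 in scrambled cells. It rose by 0.54 (SE 0.10, adjusted p = 0.0044), without overlap. Cox8b read 9.28, 9.76 and 9.37 in Plin2 siRNA cells, against 8.36, 9.44 and 8.99 in scrambled cells, and rose by 0.54 (SE 0.10, adjusted p = 0.0037). Its groups overlapped, since scrambled oleate lay above Plin2 siRNA palmitate and BSA. Cox6a2 read 10.12, 10.18 and 10.19 in Plin2 siRNA cells, against 9.75, 9.97 and 10.06 in scrambled cells, a change of 0.24 (SE 0.07, adjusted p = 0.030). In Cox7a1 and Cox8b the palmitate pair stood apart, at 0.86 and 0.91, against 0.25 and 0.32 with oleate and 0.49 and 0.38 with BSA. Without the scrambled palmitate array, which takes out the whole palmitate pair, Cox7a1 stood at 0.37 (adjusted p = 0.014) and Cox8b at 0.35 (adjusted p = 0.0061). Cox6a2 stood at 0.17 (adjusted p = 0.13) and lost its call. Cox6a2 passed in 6 of the 13 alternative settings, and Cox7a1 and Cox8b in 11 each. With all probe sets in the fit, Cox7a1 and Cox8b lost their calls (adjusted p = 0.076 and 0.075). They also lost them with no treatment term (adjusted p = 0.074 and 0.14).

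The isoforms of a pair were then set against each other within each array, which leaves out anything that scales both alike. The difference Cox7a1 minus Cox7a2 changed by 0.18 with Plin2 siRNA, Cox8b minus Cox8a by -0.04 and Cox6a2 minus Cox6a1 by -0.10. Exact two-sided permutation tests over 3 against 3 arrays, which cannot go below p = 0.1, gave p = 0.6, 0.9 and 0.3 (0.75, 0.9 and 0.5 after Benjamini-Hochberg adjustment over 5 pairs). With a smallest possible p of 0.1, and without the pairing by treatment, these tests cannot show whether the muscle and general forms shifted against each other. The per-pair differences of Cox8b minus Cox8a ran from -0.39 with oleate to 0.44 with palmitate.

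**Figure D3:**
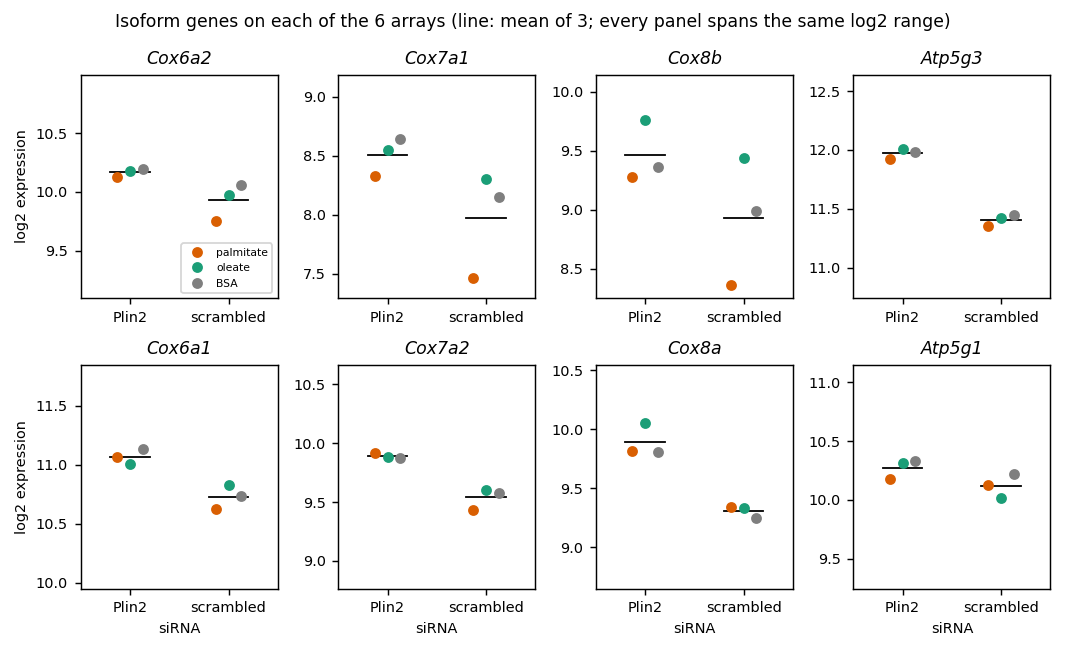
Log2 expression of 8 isoform genes on each of the 6 arrays, with Plin2 siRNA to the left of scrambled siRNA in every panel; colours are treatments, the line is the mean of 3 arrays, and all panels span the same log2 range. Atp5g3 and Cox8a show separate groups, whereas Cox8b overlaps and has its lowest value, 8.36, on the scrambled palmitate array.

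Of the isoforms known mainly from other tissues, 0 of 4 passed, where 8.31% of all named genes rose and 8.8% fell. Cox7b2 and Cox6b2 lay below the array medians of 4.94 to 5.02 on every array, and Cox8c and Cox4i2 lay near them. Their signals were low, so a missing call does not show a lack of change. Cox7b2, known from testis, read 2.99, 2.88 and 3.10 in Plin2 siRNA cells, against 2.80, 3.01 and 2.78 in scrambled cells, with a change of 0.13 (95% confidence interval -0.12 to 0.38, adjusted p = 0.54). Cox6b2, also a testis form, read 4.51, 4.24 and 4.63 in Plin2 siRNA cells, against 4.70, 4.37 and 4.60 in scrambled cells. Its change of -0.10 (95% confidence interval -0.36 to 0.15, adjusted p = 0.68) was the lowest of the 48 genes. Cox8c, a further testis form, read 5.15, 5.16 and 5.07 in Plin2 siRNA cells, against 4.83, 5.20 and 5.35 in scrambled cells, with a change of 0.00 (95% confidence interval -0.29 to 0.29, adjusted p = 1.00). Cox4i2, known from lung, read 5.31, 5.23 and 5.31 in Plin2 siRNA cells, against 5.21, 5.21 and 5.11 in scrambled cells. Its change was 0.11 (95% confidence interval -0.14 to 0.35, adjusted p = 0.63), with groups that narrowly did not overlap, while those of the other 3 did. The supercomplex factor Cox7a2l read 9.90, 10.01 and 9.89 in Plin2 siRNA cells, against 9.39, 9.49 and 9.49 in scrambled cells, a change of 0.48 (SE 0.06, adjusted p = 3.7e-04), and its other probe set gave 0.56 (adjusted p = 1.5e-04).

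In complex V, 4 of 5 accessory subunits of the membrane part rose, 1 of 3 genes for the c ring, 2 of 5 genes of the F1 head and central stalk, and 1 of 4 of the peripheral stalk. This grouping was also made after values were seen, and no test was made between the roles. The c ring is the proton-driven rotor. Its subunit is encoded by Atp5g1, Atp5g2 and Atp5g3, whose products carry different import sequences but yield the same mature protein. Atp5g3 read 11.93, 12.01 and 11.99 in Plin2 siRNA cells, against 11.35, 11.42 and 11.45 in scrambled cells. It rose by 0.57 (SE 0.05, adjusted p = 3.0e-05), the smallest p among the 48 genes, and its pair values were 0.57, 0.58 and 0.54. Atp5g2 read 11.43, 11.55 and 11.42 in Plin2 siRNA cells, against 11.19, 11.31 and 11.36 in scrambled cells, with a change of 0.18 (95% confidence interval 0.05 to 0.31, adjusted p = 0.060). Atp5g1 read 10.18, 10.31 and 10.33 in Plin2 siRNA cells, against 10.13, 10.02 and 10.22 in scrambled cells, with a change of 0.15 (95% confidence interval 0.00 to 0.30, adjusted p = 0.17). The groups of Atp5g2 did not overlap and those of Atp5g1 did. Within arrays, Atp5g3 minus Atp5g1 was higher with Plin2 siRNA by 0.42 (0.53, 0.29 and 0.43 in the 3 pairs) and Atp5g3 minus Atp5g2 by 0.38 (0.33, 0.34 and 0.48). Each gave an exact two-sided permutation p of 0.1, the smallest that 3 against 3 arrays allow, and 0.25 after adjustment over the 5 pairs.

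Because these 3 genes make the same mature subunit and 1 of them passed the test, the 250 bases before their starts are shown, from RefSeq on GRCm38.p6. Capitals mark short cores of factors known to act on respiratory genes: AAGGTCA for estrogen-related receptors, CCGGAAG for GABP and GCGCATGCG for NRF1, each on either strand. All 3 lie on the minus strand, Atp5g3 at chr2:73911327-73911576, Atp5g2 at chr15:102671048-102671297 and Atp5g1 at chr11:96075632-96075881.
Atp5g3: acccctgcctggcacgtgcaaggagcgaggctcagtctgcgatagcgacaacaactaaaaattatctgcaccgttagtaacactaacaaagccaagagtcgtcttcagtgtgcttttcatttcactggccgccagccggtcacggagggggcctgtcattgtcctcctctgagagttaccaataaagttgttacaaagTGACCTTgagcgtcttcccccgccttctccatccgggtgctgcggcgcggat
Atp5g2: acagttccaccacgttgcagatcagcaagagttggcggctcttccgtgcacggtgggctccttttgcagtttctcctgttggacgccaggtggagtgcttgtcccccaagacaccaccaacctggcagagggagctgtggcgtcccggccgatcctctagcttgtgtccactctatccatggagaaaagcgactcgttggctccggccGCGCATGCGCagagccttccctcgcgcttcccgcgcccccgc
Atp5g1: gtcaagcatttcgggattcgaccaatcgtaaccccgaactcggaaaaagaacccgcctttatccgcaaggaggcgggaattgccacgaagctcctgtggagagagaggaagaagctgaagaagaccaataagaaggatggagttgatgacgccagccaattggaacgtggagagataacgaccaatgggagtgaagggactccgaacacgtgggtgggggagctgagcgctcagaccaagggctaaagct
The Atp5g3 window held the reverse complement of the estrogen-related receptor core, beginning 52 bases before the start. The Atp5g2 window held the NRF1 core, beginning 42 bases before the start and overlapping its own reverse complement by all but 1 base. In the Atp5g1 window none of these 3 cores was found. A match is a description of sequence and not evidence of binding.

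The accessory subunits Atp5k, Atp5l, Atp5md and Atp5mpl sit in the membrane, and the first 2 are known for holding ATP synthase dimers together. Atp5k read 9.18, 9.27 and 9.20 in Plin2 siRNA cells, against 8.74, 8.86 and 8.92 in scrambled cells, a change of 0.38 (SE 0.07, adjusted p = 0.0030). Atp5l read 9.80, 9.92 and 9.84 in Plin2 siRNA cells, against 9.27, 9.74 and 9.49 in scrambled cells, a change of 0.35 (SE 0.08, adjusted p = 0.0077). The other 5 probe sets of Atp5l all rose as well, by 0.33 to 0.38. Whether these probe sets read separate transcripts was not tested.

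Atp5md read 11.46, 11.51 and 11.51 in Plin2 siRNA cells, against 11.03, 11.40 and 11.01 in scrambled cells, a change of 0.34 (SE 0.07, adjusted p = 0.0075). Atp5mpl read 11.02, 11.16 and 11.02 in Plin2 siRNA cells, against 10.71, 10.81 and 10.81 in scrambled cells, a change of 0.29 (SE 0.06, adjusted p = 0.0050). Each of these 4 accessory genes was higher on every Plin2 siRNA array than on every scrambled array. Atp5j2, the fifth of the group, stood at 0.09 (95% confidence interval -0.04 to 0.22, adjusted p = 0.38), without overlap but with pair values of 0.00 to 0.19. The window before Atp5l held all 3 cores, on the minus strand of GRCm38.p6 at chr9:44920743-44920992, and is shown for comparison with the c ring genes.
Atp5l: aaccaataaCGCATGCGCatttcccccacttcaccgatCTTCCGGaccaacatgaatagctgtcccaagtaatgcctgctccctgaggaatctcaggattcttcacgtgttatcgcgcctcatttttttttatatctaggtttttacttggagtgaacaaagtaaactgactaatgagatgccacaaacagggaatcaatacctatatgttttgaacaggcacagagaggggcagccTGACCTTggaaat

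The F1 head makes ATP on alternating alpha and beta subunits turned by the central stalk. Atp5a1, the alpha subunit, read 12.61, 12.75 and 12.61 in Plin2 siRNA cells, against 12.34, 12.46 and 12.51 in scrambled cells, a change of 0.22 (SE 0.06, adjusted p = 0.018). Atp5e, the epsilon subunit of the stalk, read 9.41, 9.38 and 9.60 in Plin2 siRNA cells, against 9.23, 9.18 and 9.27 in scrambled cells, a change of 0.24 (SE 0.07, adjusted p = 0.030). Both were separate between siRNAs. Atp5b, the catalytic beta subunit, read 12.88, 12.94 and 12.88 in Plin2 siRNA cells, against 12.60, 12.88 and 12.79 in scrambled cells. Its change was 0.14 (95% confidence interval 0.02 to 0.27, adjusted p = 0.13), with groups that did not overlap. The gamma subunit Atp5c1 stood at 0.13 (95% confidence interval 0.01 to 0.26, adjusted p = 0.15) and the delta subunit Atp5d at 0.02 (95% confidence interval -0.09 to 0.14, adjusted p = 0.86).

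The peripheral stalk holds the head still against the rotor. Atp5pb, its long b subunit, read 11.20, 11.41 and 11.18 in Plin2 siRNA cells, against 10.71, 11.24 and 10.91 in scrambled cells, a change of 0.31 (SE 0.07, adjusted p = 0.0090). Its groups overlapped, because scrambled oleate lay above Plin2 siRNA palmitate and BSA, and its other probe set narrowly missed the threshold at 0.23 (adjusted p = 0.0504). Atp5h stood at 0.12 (95% confidence interval -0.01 to 0.25, adjusted p = 0.23) and Atp5o at 0.09 (95% confidence interval -0.06 to 0.24, adjusted p = 0.50). Atp5j read 11.63, 11.66 and 11.73 in Plin2 siRNA cells, against 11.70, 11.71 and 11.64 in scrambled cells. Its change of -0.01 (95% confidence interval -0.14 to 0.12, adjusted p = 0.95) was the lowest in the complex, and its groups overlapped.

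Of 22 further probe sets in the 13 genes with several, 11 rose and 0 fell, with changes of 0.03 to 0.56. Of all named genes, 8.31% rose and 8.8% fell. In 4 of the 22 the call differed from that of the probe set used, and in 2, both of Cycs, the sign did. Most of those that rose were of Atp5l and Atp5md, and whether they read separate transcripts was not tested. Over 13 alternative settings, 8 of the 24 risen genes kept an adjusted p under 0.05 in every one: Atp5g3, Atp5k, Cox6c, Cox7a2, Cox7a2l, Cox8a, Uqcrfs1 and Uqcrq. The other 16 lost it in at least 1. The count of 24 was 11 without the intensity trend and 14 with all probe sets in the fit, all of them among the 24, and 0 genes fell in either.

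Promoter windows from 250 bases before to 50 after the start were found in the RefSeq table for 36 of the 48 genes. The GABP core was in 13 of these (36.1%), against 9.93% of 27025 genes in the table, and the NRF1 core in 7 (19.4%), against 1.95%. The estrogen-related receptor core was in 5 (13.9%), against 5.38%. The 5 were Sdhd, Atp5g3, Atp5k, Atp5l and Atp5e, and all of them rose. Among the 36, 17 had risen, of which 9 held the GABP core and 4 the NRF1 core. Among the 19 that did not pass, these counts were 4 and 3. These shares are a description, since many housekeeping promoters are rich in G and C and no correction for base composition was made.

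Of 35 genes that act in assembly or inhibition of these complexes, 10 rose and 0 fell, against 8.31% and 8.8% of all named genes. In complex IV these were 6 of 21. Coa5, an assembly factor of complex IV, averaged 9.38 ± 0.08 in Plin2 siRNA cells and 8.57 ± 0.12 in scrambled cells (SD, n = 3 arrays each). The 3 arrays are 1 per treatment, so this SD spans treatments and not replicates. Coa5 rose by 0.82 (SE 0.07, adjusted p = 2.2e-05). Higd2a, which binds complex IV and its supercomplexes, averaged 10.44 ± 0.09 in Plin2 siRNA cells and 9.64 ± 0.06 in scrambled cells (SD, n = 3 arrays, 1 per treatment). It rose by 0.80 (SE 0.06, adjusted p = 8.7e-06). Both changes were larger than that of any subunit. Cox14, which acts in translation of the Cox1 subunit, rose by 0.56 (SE 0.07, adjusted p = 3.9e-04), and Cox15, an enzyme of heme A synthesis, by 0.35 (SE 0.07, adjusted p = 0.0064). Higd1a rose by 0.33 (SE 0.09, adjusted p = 0.023) and Cox18, a membrane insertase, by 0.26 (SE 0.07, adjusted p = 0.025).

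For the other complexes, Sdhaf1, which protects the iron-sulphur clusters of Sdhb, rose by 0.34 (SE 0.09, adjusted p = 0.018), and Uqcc3, an assembly factor of complex III, by 0.49 (SE 0.09, adjusted p = 0.0029). Atpaf2, the chaperone of the alpha subunit, rose by 0.29 (SE 0.09, adjusted p = 0.039), and Atpif1, the inhibitor that stops reverse action of ATP synthase, by 0.24 (SE 0.06, adjusted p = 0.014). Of the mitochondrially encoded subunits, 1 could be read, COX2, at 13.19 ± 0.06 in Plin2 siRNA cells and 13.05 ± 0.20 in scrambled cells (SD, n = 3 arrays, 1 per treatment). Its change was 0.15 (adjusted p = 0.27). Of 14 regulators of mitochondrial genes, 1 rose (7.14%, near the 8.31% of all named genes). This was the coactivator Ppargc1a, at 1.52 (SE 0.12, adjusted p = 7.5e-06). Ppargc1a averaged 6.05 ± 0.13 in Plin2 siRNA cells and 4.53 ± 0.16 in scrambled cells (SD, n = 3 arrays, 1 per treatment). Its highest scrambled value, 4.65, lay below the array medians of 4.94 to 5.02, so its scrambled signal was low. Ppargc1a had 2 probe sets, of which 1 is reported. The factors whose cores are described above did not pass. Of the estrogen-related receptors, Esrra stood at 0.04 (adjusted p = 0.84), Esrrb at 0.49 (adjusted p = 0.060) and Esrrg at -0.08 (adjusted p = 0.80). For the other cores, Gabpa stood at -0.06 (adjusted p = 0.61) and Nrf1 at -0.04 (adjusted p = 0.83).

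Palmitate and oleate were each compared with BSA to ask how the fatty acids act on these genes. With palmitate, 0 of the 48 genes passed, where 0.01% of all named genes did, and 8 had an unadjusted p under 0.05 (5.2% of all named genes). The fitted change was below 0 in 45 of the 48, with a median of -0.09 against -0.01 over all named genes. Of those 19938 named genes, 10436 lay below 0. By complex the medians were -0.13 in II, -0.09 in III, -0.09 in IV and -0.08 in V. With oleate, 0 of 48 passed, where 0.0802% of all named genes did, and 3 had an unadjusted p under 0.05 (6.22% of all). The median was 0.01, with 29 of the 48 above 0, against -0.02 and 8871 of 19938 among all named genes.

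The palmitate difference was small in Plin2 siRNA cells and larger in scrambled cells. Its median over the 48 genes was -0.04 with Plin2 siRNA, where 33 genes lay below 0, and -0.15 with scrambled siRNA, where 40 did. Over all 19938 named genes these medians were -0.015 and 0.004, with 10775 and 9781 genes below 0. In complex II the median was -0.07 with Plin2 siRNA and -0.20 with scrambled siRNA, and in complex III -0.05 and -0.13. Complex IV stood at 0.00 and -0.15, and complex V at -0.04 and -0.12. Each of these rests on 1 array per condition, and all comparisons with palmitate in scrambled cells share the array that was lowest for most of these genes. When a term was added for the siRNA change with either fatty acid against that with BSA, 0 of 48 passed and 0% of all named genes did, and 1 of the 48 had an unadjusted p under 0.05 (2.56% of all). The largest terms were those of Cox5a at 0.45 and Cox8c at 0.43 (adjusted p = 0.9998 for both). This term takes palmitate and oleate together, so whether the palmitate difference alone depended on the siRNA was not tested.

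**Figure D4:**
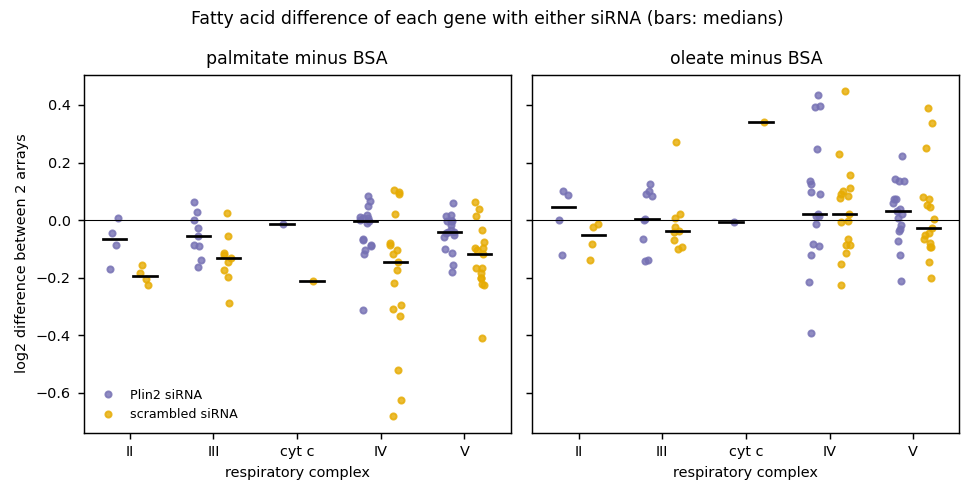
Log2 difference of each gene between a fatty acid and BSA (left, palmitate; right, oleate), by complex, with Plin2 siRNA to the left of scrambled siRNA; each point is 1 gene on 2 arrays and the black bars are medians over genes. Palmitate points of scrambled cells lie mostly below 0, with complex IV genes reaching -0.68, while oleate points scatter around 0.

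Palmitate was then set against oleate, which share dose and time and differ in chain length and in the double bond of oleate. Of the 48 genes, 1 passed, Cox8b, where 0.281% of all named genes did, and 14 had an unadjusted p under 0.05 (9.12% of all). Cox8b was lower with palmitate than with oleate, at 9.28 against 9.76 in Plin2 siRNA cells and 8.36 against 9.44 in scrambled cells. Its change was -0.78 (SE 0.12, limma adjusted p = 0.036, n = 2 pairs). This call was lost without the scrambled palmitate array (-0.50, adjusted p = 0.12), after quantile normalization (adjusted p = 0.065) and after centring (adjusted p = 0.057). It was also lost without the intensity trend (adjusted p = 0.40) and with all probe sets in the fit (adjusted p = 0.54), and over the alternatives the adjusted p ranged from 1.4e-10 to 0.54. Cox7a1, the next largest, stood at -0.53 (SE 0.13, adjusted p = 0.18). Atp5pb stood at -0.37 (SE 0.08, adjusted p = 0.14) and Cox5a at -0.32 (SE 0.11, adjusted p = 0.42). The median of the 48 genes was -0.12, with 42 below 0, against 0.01 over all 19938 named genes, with 9163 below 0. For Cox8b, palmitate against BSA gave -0.36 (SE 0.12, adjusted p = 0.89) and oleate against BSA 0.42 (SE 0.12, adjusted p = 0.51), and for Cox7a1 these were -0.50 (SE 0.13, adjusted p = 0.72) and 0.03 (SE 0.13, adjusted p = 0.99).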

How the data were processed

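Total RNA of 6 C2C12 cultures was labelled and hybridised to Affymetrix arrays, 1 per condition. The deposited values are log2 expression per probe set, made by the authors with RMA, per the submitters' processing notes, a method that ends in log2 values. The version of RMA and the build were not given in the sources used here. RMA's between-array step sets the arrays to one distribution, so a change shared by most genes would not show. Arrays carry no read depth, and their number limits the precision.

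Of 35556 probe sets, the GEO platform annotation tied 21789 to 1 symbol and 1621 to several, and did not list 12146. All 48 genes matched a RefSeq GRCm38.p6 table by Entrez ID, with 0 symbols changed. A model with siRNA and treatment terms was fitted to the 21789 with limma 3.58.1 in R 4.3.3 (lmFit, eBayes with intensity trend, 2 residual and 9.21 prior degrees of freedom), and Benjamini-Hochberg adjustment ran over all of them. A second model added siRNA by any fatty acid. Changes carry a standard error (SE) or 95% confidence interval. The fit was tested on simulated data. Full values are given for each of the 48 genes with a call, the isoform sets, and the highest and lowest change per complex. Assembly, inhibitor and regulator genes with a call carry at least the change, its SE and its adjusted p. Cell type markers are given mainly as counts. Esrra, Esrrb, Esrrg, Gabpa, Nrf1, Pdgfra and the named myoblast markers were added after their values were seen. The members and lists were chosen with earlier results of these data known, and the grouping of subunits by role was written after values were seen.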

Additional observations from a re-analysis of the deposited data

How the results depend on the processing

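With Plin2 siRNA, 24 genes rose in the fit reported, and 11 did without the intensity trend (11.2% of all named genes called in either direction, against 17.1%) and 14 with all probe sets in the fit (7.74%). Leaving out 1 array gave 20 to 26 (10.2% to 17.5%), without the dimmest 33.3% of probe sets 27 (28.3%), and with no treatment term 18 (14.6%). Over 13 alternatives and 48 genes, 564 of 623 results kept their side of the threshold, 46 lost a call, 13 gained one and 0 called changes reversed. These tallies overstate the number of separate checks, because leaving out either array of a pair gives the same siRNA change. The medians per complex moved by less than the SD of their 3 pair medians under every alternative run. Leaving out 1 array takes out 1 of those same pairs, so for these fits that yardstick cannot show stability. They gave 0.09 to 0.17 for complex II, 0.28 to 0.31 for III, 0.21 to 0.32 for IV and 0.18 to 0.20 for V. For oleate, the count of 0 was 1 (Cox8b, higher) on the 4 BSA and oleate arrays alone, and 0 to 4 when 1 array was left out (4 without Plin2 siRNA oleate, 1 without either palmitate array). For palmitate, the count of 0 was 2 (Cox7a1 and Cox8b, lower) on the 4 BSA and palmitate arrays alone, and 0 to 2 when 1 array was left out (2 without either oleate array or Plin2 siRNA palmitate). For palmitate against oleate, the count of 1 was 0 after centring, after quantile normalization, with all probe sets and without the intensity trend, and 0 to 7 when 1 array was left out, with 7 without Plin2 siRNA oleate, 5 without Plin2 siRNA palmitate, 3 without scrambled oleate and 0 without scrambled palmitate. For siRNA by fatty acid, the count was 0 under every alternative that could be fitted, and leaving out an array left no residual degrees of freedom there. The causes of these shifts were not tested. The fit reported pairs the arrays by treatment, and the labels carry no replicate numbers to pair by.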
